A study of Rattus norvegicus with 2 samples.

Results

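A list of 10 glutathione S-transferase genes was examined in rat liver after partial hepatectomy, the surgical removal of part of the organ: Gsta1, Gsta2, Gsta3 and Gsta4 of the alpha class, Gstm1, Gstm2 and Gstm3 of the mu class, Gstp1 and Gstp3 of the pi class, and Gstt1 of the theta class. They were chosen by gene symbol in the platform annotation, out of 14217 named genes. Of the 10, 9 had a probe set of their own, 1 each, a probe set being the group of short probes that reads a transcript. Gsta2 had none, because its probe set is assigned to both Gsta2 and Gsta5 and cannot be given to either. The 8 members whose mean signal reached the floor, a signal of 89.2 set at the median of the probe sets, are compared below with the 9514 genes that reached it, and Gstm3 lay below it.

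Glutathione S-transferases join glutathione to reactive molecules, so that drugs, toxins and lipid breakdown products can be exported and excreted. The cytosolic enzymes are dimers of subunits that fall into classes by sequence, among them alpha, mu, pi and theta, and hepatocytes of the rat hold large amounts of the alpha and mu classes. The pi-class subunit Gstp1 is scarce in normal rat hepatocytes and is a classic marker of preneoplastic liver foci.

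The study measured rat liver left in place 24 h after removal of a larger (2/3PH) or a smaller (1/3PH) part of it by partial hepatectomy (PH). Both groups were operated, and unoperated or sham-operated liver was not analysed here. Strain, sex and age are not given in the labels. Each group was a single Affymetrix array of RNA pooled from 3 rats, 6 rats in all, which leaves every difference without a replicate check and allows no test. The series' design text sets 2/3PH, followed by robust DNA synthesis, against 1/3PH, followed by little, and asks which transcripts differ.

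Values are MAS 5.0 signals, which are in arbitrary units and scaled to the same trimmed mean on both arrays. "Higher" and "lower" say where the 2/3PH array stood against the 1/3PH array, and log2 ratios are 2/3PH minus 1/3PH. Signals of different probe sets depend on the probes, so genes were compared by their ratios and not by their levels. The SD of the log2 ratio between probe sets of the same gene was 0.33 over 2067 genes. It covers error within the arrays and not the spread between rats.

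Liver identity was plain on both arrays. All 13 hepatocyte markers lay above the floor, with Alb, albumin, at 29468 after 2/3PH and 34570 after 1/3PH. All 7 lymphocyte markers with a probe set lay below it.

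Most transferases were lower after 2/3PH, and 1 was higher. Of the 8 members above the floor, 7 had log2 ratios below 0 and Gsta3 stood above it, and Gstm1 joined Gsta3 there, at 0.05, when the arrays were scaled to the poly-A controls. Among all genes above the floor, 47.1% were below 0 on the deposited scale. The members' median log2 ratio was -0.69, against 0.03 for all genes. Gstp3 alone was at least 2-fold lower, 1 of 8, against a background of 3.68%, a count that rests on a single gene. None of the 8 was at least 2-fold higher, against a background of 6.12%. The probe set assigned to both Gsta2 and Gsta5, left out of these counts, was 2.43-fold lower, with 1.98% of genes lower still. At a limit of 1.5-fold, 4 of 8 were lower, Gstp3, Gstt1, Gsta1 and Gsta4, where the background was 12.0%. The count higher by 1.5-fold was 1, Gsta3, where the background was 15.8%. The lower count depended on the scaling, and so did the share of all genes. The count was 5 with median centring, quantile and loess scaling, where Gstp1 joined, against 13.9%, 13.4% and 12.9% of all genes. With hybridisation control scaling it was 3, against 6.16%. With poly-A control scaling it was 1, Gstp3, against 3.40% of all genes. The members share the same 2 arrays and in part their sequence, and are not replicates of each other.

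**Figure D1:**
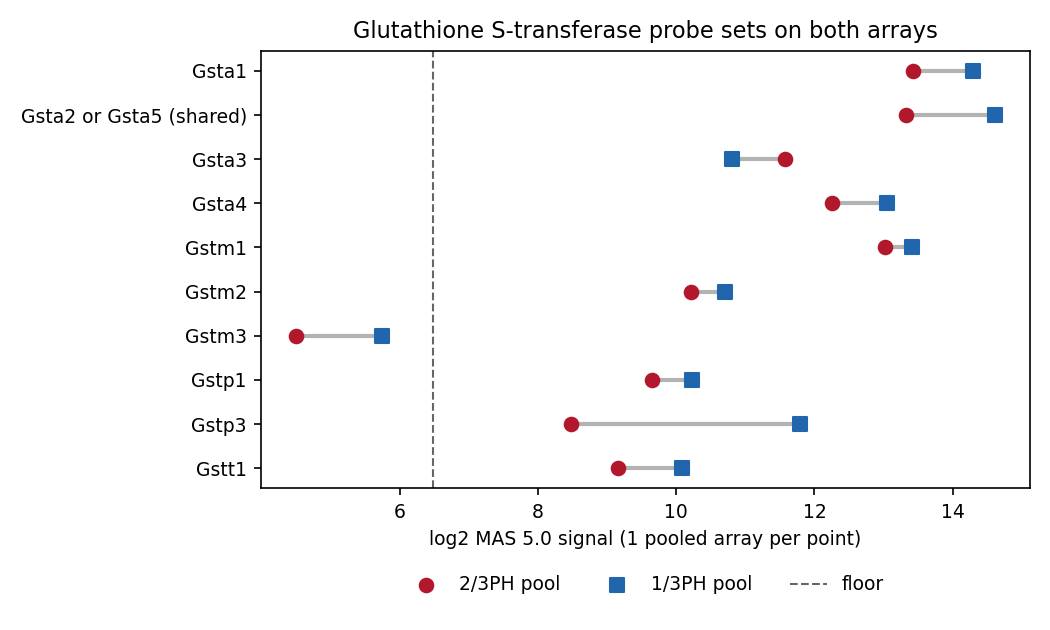
Log2 MAS 5.0 signal (x axis) of each transferase probe set (rows) on the 2/3PH array (red circles) and the 1/3PH array (blue squares), 1 pooled array per point, with the floor at 6.48 dashed. The 2/3PH point lies left of the 1/3PH point in every row but Gsta3, and Gstm3 lies below the floor on both arrays.

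**Figure D2:**
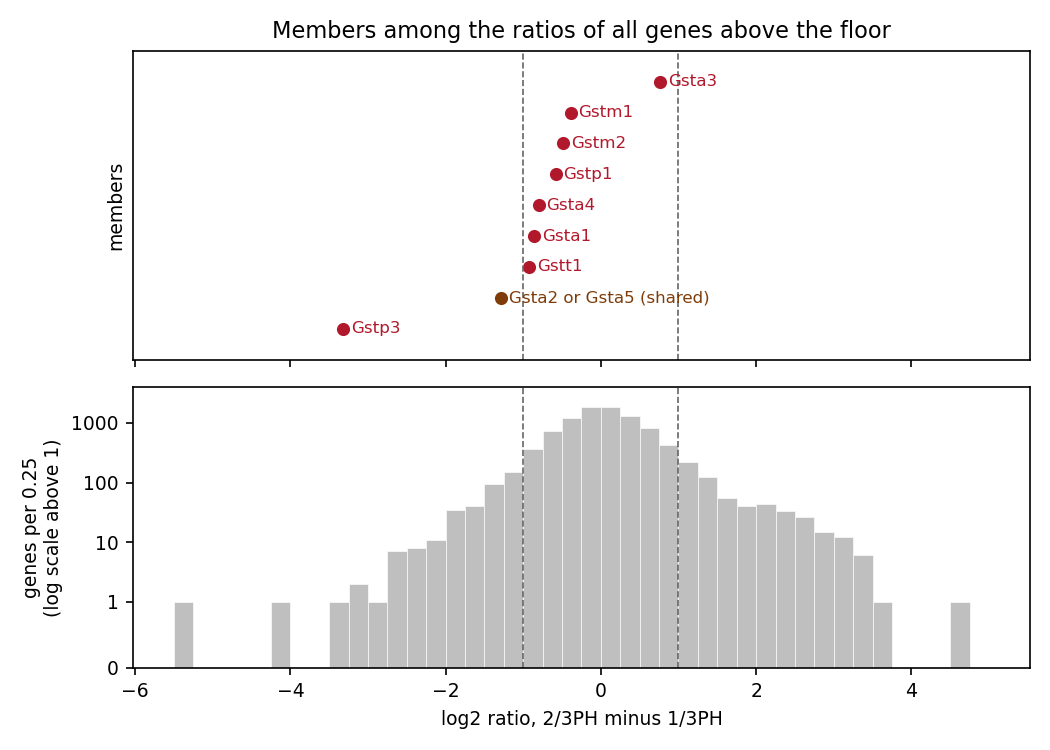
Log2 ratios, 2/3PH minus 1/3PH (x axis, shared), of the members above the floor and the shared Gsta2 or Gsta5 probe set (upper panel, 1 row each), over a histogram of all 9514 genes above the floor (lower panel, log scale above 1). Dashed lines mark 2-fold; Gstp3 at -3.32 lies in the far lower tail, and Gsta3 at 0.77 is the 1 member right of 0.

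The pi class held the largest difference. Gstp3, a pi-class gene that neighbours Gstp1 on the chromosome, read 355 after 2/3PH and 3546 after 1/3PH. It was 9.98-fold lower, a log2 ratio of -3.32, the third lowest of the 9514 genes. Both signals exceeded the floor signal, so the fold is not a bound. Gstp1 read 804 after 2/3PH and 1202 after 1/3PH, lower by a little under 1.5-fold at a log2 ratio of -0.58. The ratios of these adjacent genes thus lay 2.74 apart on the log2 scale. The distance was 2.69 with quantile and 2.73 with loess scaling, and the other scalings, which shift every gene alike, cannot change it.

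Ratios nearest to that of Gstp3 belonged to the neuronal membrane protein gene Sez6 at -3.17, the erythroid transcription factor Nfe2 at -3.01 and the sulfotransferase Sult1c3 at -2.78. With 2 arrays a pattern is a single ratio, so this likeness is a difference of 0.15 to 0.54 between ratios and nothing more. Nfe2 lay below the floor signal after 2/3PH, with 42.8 against 344.6 after 1/3PH, so it was at least 3.86-fold lower.

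The promoter windows of Gstp3 and Gstp1 are shown because the genes are neighbours of the same class with unequal ratios. They run from 250 bases before to 50 bases after the annotated start in RefSeq, rat build GRCr8, at chr1:210787635-210787934 for Gstp3 and chr1:210769656-210769955 for Gstp1, both read 5′ to 3′ on the minus strand. Capitals mark matches on either strand to the core of the antioxidant response element, TGACNNNGC, which NRF2 with small Maf proteins binds, and to the core of the xenobiotic response element, GCGTG, which the aryl hydrocarbon receptor with Arnt binds.
Gstp3: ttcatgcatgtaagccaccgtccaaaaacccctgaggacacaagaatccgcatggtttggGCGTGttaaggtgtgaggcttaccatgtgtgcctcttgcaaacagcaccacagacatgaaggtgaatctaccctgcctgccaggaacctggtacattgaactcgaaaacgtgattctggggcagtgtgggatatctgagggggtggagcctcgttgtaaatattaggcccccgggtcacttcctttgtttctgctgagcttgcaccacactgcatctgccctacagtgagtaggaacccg
Gstp1: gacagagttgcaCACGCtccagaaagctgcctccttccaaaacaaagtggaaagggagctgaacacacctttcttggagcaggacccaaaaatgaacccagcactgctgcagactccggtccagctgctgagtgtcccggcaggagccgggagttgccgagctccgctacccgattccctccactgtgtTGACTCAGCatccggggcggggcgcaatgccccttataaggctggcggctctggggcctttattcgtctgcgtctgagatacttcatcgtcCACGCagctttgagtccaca
The Gstp1 window held the antioxidant core as TGACTCAGC, starting 61 bases before the start site, where Gstp3 had no match. No match overlapped another in these windows. The Gstp3 window held 1 xenobiotic core and the Gstp1 window 2. Rat Gstp1 is also known for an enhancer farther upstream, GPEI, which lies outside this window.

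Alpha-class genes differed in direction. Gsta1, known as subunit Yc1, read 11037 after 2/3PH and 20052 after 1/3PH. It was 1.82-fold lower, a log2 ratio of -0.86, with 5.61% of genes lower still. Gsta3, known as subunit Yc2 and in the rat for conjugating the aflatoxin epoxide, read 3036 after 2/3PH and 1784 after 1/3PH. It was 1.70-fold higher, a log2 ratio of 0.77, with 89.8% of genes below it. Symbols of these genes have been exchanged over time, and RefSeq lists both Gsta3 and Gsta5 as older names of Gsta1. The values above follow the Entrez identifiers of the probe sets.

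Gsta1 and Gsta3 are adjacent protein-coding genes in GRCr8, and their ratios lay on opposite sides of 0 by 1.63 in all on the log2 scale. The difference was 1.48 under quantile and loess scaling. Both ratios rest on a single probe set. Whether related transcripts share probes was not tested for this pair or for Gstp1 and Gstp3.

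The windows of Gsta1, at chr9:31216483-31216782 on the minus strand, and Gsta3, at chr9:31154739-31155038 on the plus strand, are shown because the pair is related in sequence and opposite in ratio. They are from the same RefSeq table and build, read 5′ to 3′, with capitals as before.
Gsta1: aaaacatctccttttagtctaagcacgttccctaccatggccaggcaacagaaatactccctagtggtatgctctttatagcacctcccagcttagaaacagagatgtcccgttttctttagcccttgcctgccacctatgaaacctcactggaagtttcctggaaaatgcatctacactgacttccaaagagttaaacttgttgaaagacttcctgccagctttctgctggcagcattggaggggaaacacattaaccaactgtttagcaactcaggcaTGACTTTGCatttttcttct
Gsta3: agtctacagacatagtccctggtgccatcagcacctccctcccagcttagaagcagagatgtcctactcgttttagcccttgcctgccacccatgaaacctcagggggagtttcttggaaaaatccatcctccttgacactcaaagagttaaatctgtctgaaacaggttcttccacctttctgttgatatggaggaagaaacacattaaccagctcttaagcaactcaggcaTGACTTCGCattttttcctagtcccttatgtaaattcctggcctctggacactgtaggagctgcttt
A local alignment of the windows matched 172 of 215 columns, 80.0%, the highest score among the members' windows. Each holds a single antioxidant core inside that stretch, TGACTTTGC in Gsta1 and TGACTTCGC in Gsta3. By the annotated starts, the core began at base 31 of the Gsta1 transcript and 17 bases before the start of Gsta3. A second RefSeq window of Gsta3, farther along the gene, held no antioxidant core and 1 xenobiotic core. A match is a stretch of letters and no binding was measured.

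Gsta4, which conjugates hydroxynonenal, a product of lipid peroxidation, read 4863 after 2/3PH and 8475 after 1/3PH. It was 1.74-fold lower, a log2 ratio of -0.80. The probe set assigned to both Gsta2 and Gsta5 read 10257 after 2/3PH and 24968 after 1/3PH. It was 2.43-fold lower, a log2 ratio of -1.28, and -0.84 with poly-A control scaling. Gsta2 codes for a major alpha subunit of rat liver, known as Ya, and Gsta5 is its neighbour on the chromosome. How the signal divides between Gsta2 and Gsta5 cannot be told from these probes. With that probe set included, the median over 9 ratios was -0.80.

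Of the mu class, Gstm1 and Gstm2 were lower by less than 1.5-fold. Gstm1, a major mu subunit of liver, read 8287 after 2/3PH and 10841 after 1/3PH, or -0.39 in log2. Gstm2, with which it forms mixed dimers, had 1189 after 2/3PH and 1663 after 1/3PH, or -0.48 in log2. Of all genes, 20.2% were lower than Gstm1 and 15.8% lower than Gstm2. Gstm3 had signals of 22.7 after 2/3PH and 53.6 after 1/3PH, both below the floor, and no fold is given for it.

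The mu genes lie in a row in GRCr8, and their ratios were not alike. Named for their place there, after their values were seen, Gstm5 stood at 0.16 and Gstm4 at 0.05. Gstm7, in the same row, was 3.43-fold lower, with signals of 100.5 after 2/3PH and 345.1 after 1/3PH. Mu sequences are closely related and their probes may share transcripts, which was not tested.

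Gstt1, the theta-class enzyme that acts on small halogenated compounds, read 573 after 2/3PH and 1089 after 1/3PH. It was 1.90-fold lower, a log2 ratio of -0.93, with 4.62% of genes lower still. Its neighbour Gstt3 was 1.81-fold lower, with 5105 after 2/3PH and 9241 after 1/3PH.

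Promoter windows were found for 9 of the 10 members, 10 windows in all. The antioxidant core was present in 4 of the 10 windows, those of Gsta1, Gsta2, Gsta3 and Gstp1, against 12.1% of 33469 rat windows. The Gsta1 and Gsta3 cores lie in the stretch that aligned at 80.0%, so these 4 are not independent of each other. The xenobiotic core was present in 5 of the 10, against 29.7%. The genes with an antioxidant core included Gsta3, which was higher, and Gsta1 and Gstp1, which were lower. The windows of Gstm1, Gstm2 and Gstm3 held neither, which says only that these letters are absent from these windows.

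**Figure D3:**
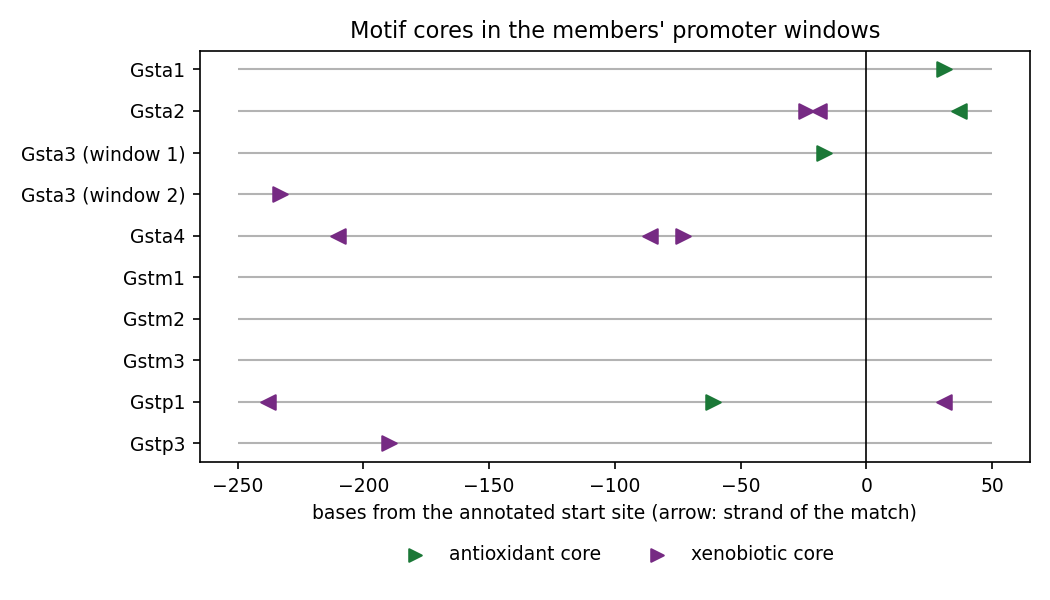
Matches to the antioxidant core (green) and the xenobiotic core (purple) in the 10 promoter windows of 9 members, by distance in bases from the annotated start site (x axis); arrows give the strand of the match. The antioxidant core lies 61 bases before the start of Gstp1 and 17 bases before that of Gsta3 (window 1), and the 3 mu-class windows are empty.

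Transferases outside the list were mixed. Of 11 with a signal above the floor, 8 had ratios below 0, at a median of -0.35. At least 2-fold lower were 2, against 3.68% of all genes, and 1 was at least 2-fold higher, against 6.12%. Gstz1, the zeta-class enzyme that isomerises maleylacetoacetate in tyrosine breakdown, was 2.47-fold lower, with 3508 after 2/3PH and 8650 after 1/3PH, and missed 2-fold with poly-A control scaling, at -0.86 in log2. The other that was 2-fold lower was Gstm7. Gstcd, named for a transferase C-terminal domain, was 2.47-fold higher, with 684 after 2/3PH and 277 after 1/3PH.

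Of the 6 membrane-bound transferases and their relatives, 5 lay above the floor, and these 5 were lower by less than 2-fold, at a median of -0.48. Ptges, a prostaglandin E synthase of the same family, had a mean below the floor and went the other way, with 110.7 after 2/3PH and 60.5 after 1/3PH, at least 1.24-fold higher. Ltc4s, leukotriene C4 synthase, stood at -0.92, and its relative Alox5ap, of leukotriene-making cells, at -0.51. Of the microsomal transferases, Mgst2 stood at -0.48 and Mgst3 at -0.44. Macrophage markers were lower on the same arrays, as given below, and their part in the Ltc4s and Alox5ap ratios was not tested.

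Genes that make and recycle glutathione had a median of -0.37 over 16, with 12 below 0. Slc3a2, the shared heavy chain of several amino acid transporters, was 2.21-fold higher. It was the 1 of 16 past 2-fold, where 6.12% of all genes were at least 2-fold higher. Gclc, the catalytic subunit of the rate-limiting ligase, read 3322 after 2/3PH and 2120 after 1/3PH. Its log2 ratio was 0.65. Averaged over its 2 probe sets, its ratio was 0.11. Gclm, the modifier subunit of the same enzyme, had 2470 after 2/3PH and 3875 after 1/3PH, or -0.65 in log2. Genes of the methionine cycle and of glutathione turnover were mixed. Gnmt, which uses up S-adenosylmethionine, stood at -0.95, Mat1a, the adult liver's S-adenosylmethionine synthetase, at -0.92, and the oxoprolinase Oplah at -0.92. Mat2a, the S-adenosylmethionine synthetase of extrahepatic and growing tissue, stood at 0.85, with 2544 after 2/3PH and 1416 after 1/3PH. Ahcy, which clears S-adenosylhomocysteine, stood at -0.56, and Ggct, Chac1 and Chac2, which break down glutathione or its gamma-glutamyl products, lay between -0.25 and -0.11. Ptges, Mat2a, Ahcy, Ggct, Chac1 and Chac2 were named after their values were seen.

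Peroxidases, glutaredoxins and glyoxalases had a median of -0.14 over 15 genes. It turned positive, at 0.09 with hybridisation control and 0.30 with poly-A control scaling, where the medians of all genes were 0.27 and 0.48. Of the 15, 2 passed 2-fold, both higher, against 6.12% of all genes. Gpx2, a glutathione peroxidase induced through NRF2, was 2.38-fold higher, with 958 after 2/3PH and 403 after 1/3PH. Glrx3, a glutaredoxin of iron-sulfur handling, was 2.34-fold higher. Hagh, which completes the glyoxalase pathway, stood at -0.84, and Gpx4, which reduces lipid peroxides, at -0.42. The Gpx4 ratio turned to 0.03 with poly-A control scaling.

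Export and processing of conjugates had a median of -0.37 over 14 genes, and 2 of them passed 2-fold, both lower, against 3.68% of all genes. Abcc2, the canalicular pump for glutathione conjugates, was 2.56-fold lower, with 1580 after 2/3PH and 4051 after 1/3PH. Nat8, which acetylates cysteine conjugates to mercapturates, was 2.02-fold lower, with 1926 after 2/3PH and 3899 after 1/3PH. Nat8 missed 2-fold with 64 units added, at -0.99 in log2, with hybridisation control scaling, at -0.78, and with poly-A control scaling, at -0.58, where Abcc2 missed it too, at -0.92. The related Nat8b stood at -0.81 and the transporter Abcc6 at -0.97.

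Targets of NRF2 and of the aryl hydrocarbon receptor, which both act on transferase genes, had a median of -0.28 over 15 genes. Of these, 2 were at least 2-fold lower, against 3.68% of all genes, and both are cytochromes P450 induced through the aryl hydrocarbon receptor. Cyp1a1 read 52.8 after 2/3PH, below the floor, and 2026 after 1/3PH, a difference of at least 22.7-fold. Cyp1a2 stood at -1.58, with 8641 after 2/3PH and 25782 after 1/3PH. Srxn1, an NRF2 target that repairs oxidised peroxiredoxins, was 2.38-fold higher. It was the 1 of 15 past 2-fold in that direction, against 6.12% of all genes. The Srxn1 fold is that of the brightest of its 3 probe sets. Averaged over them, its level lay below the floor. Osgin1, an NRF2 target induced by oxidative stress, stood at -0.59. Nqo1, a quinone reductase induced through both factors, stood at -0.27, or at 0.18 with poly-A control scaling.

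Regulators of transferase transcription had a median of -0.13 over 12 genes. It turned positive, at 0.10 with hybridisation control and 0.31 with poly-A control scaling, where the medians of all genes were 0.27 and 0.48. Of the 12, 2 passed 2-fold, both higher, against 6.12% of all genes. These 2 were subunits of AP-1, Fos at 2.11-fold and Jun at 2.03-fold, and neither stayed past 2-fold throughout. Fos stood at 0.98 in log2 with quantile normalization and 0.94 with 64 units added. The Fos values are those of the brighter of its 2 probe sets. Averaged over both, its level lay below the floor. Jun stood at 0.97 with median centring, 0.98 with quantile normalization and with 64 units added, 0.99 with loess scaling and 0.75 without suffixed probe sets. Nfe2l2, which codes for NRF2, had 5940 after 2/3PH and 3479 after 1/3PH, or 0.77 in log2. Cebpa, a factor of mature hepatocytes, stood at -0.91, or at -1.48 averaged over its 5 probe sets. Ahr lay below the floor, with 30.8 after 2/3PH and 37.3 after 1/3PH. Messenger levels of these factors do not give their activity.

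**Figure D4:**
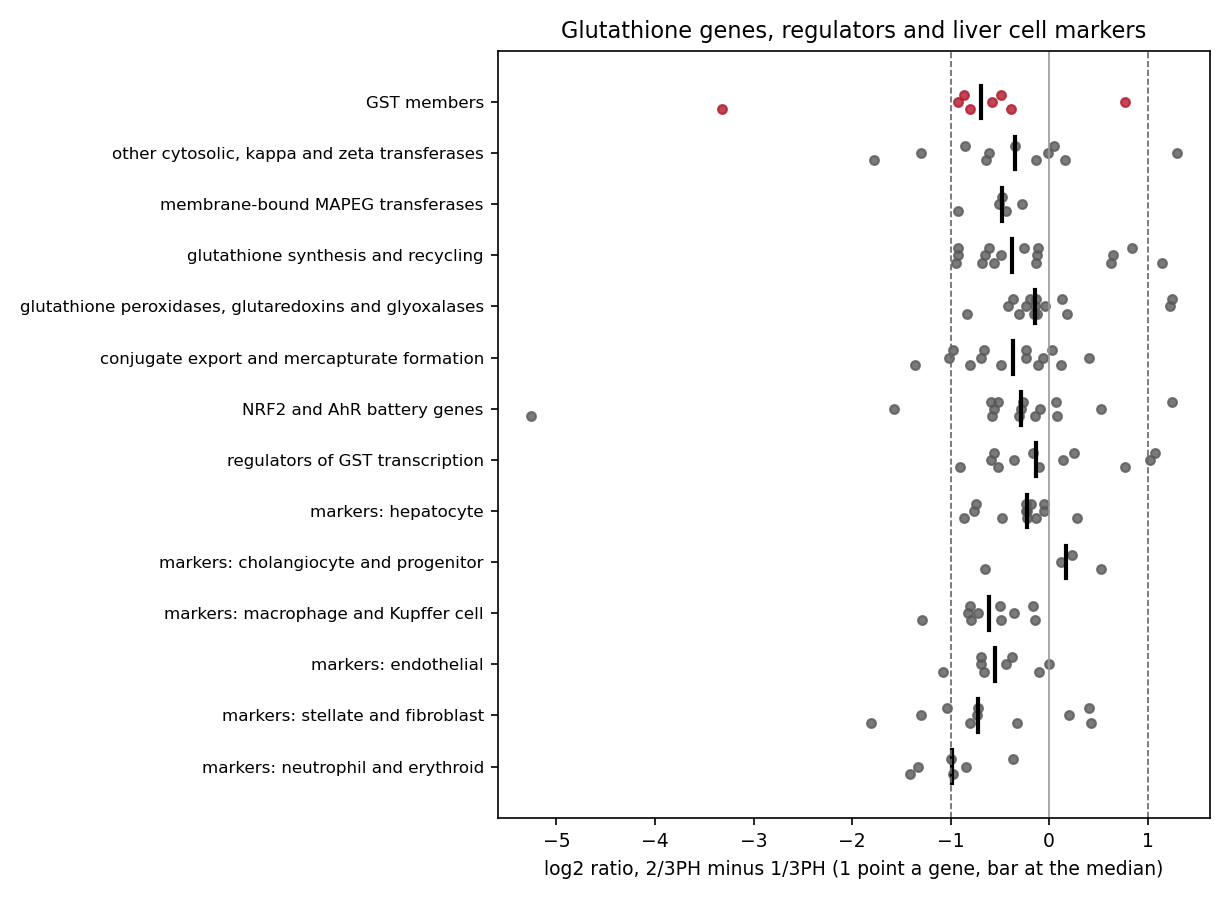
Log2 ratio, 2/3PH minus 1/3PH (x axis), of each gene above the floor in the transferase list (red), the glutathione and regulator lists and the 6 cell marker lists with a gene above the floor (grey), with a bar at each list's median and dashed lines at 2-fold. The transferase median of -0.69 lies left of those of the 7 glutathione lists, of which the lowest is -0.48, and right of those of the stellate and fibroblast (-0.73) and neutrophil and erythroid (-0.98) markers.

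Markers of liver cells moved on the same arrays. In bulk tissue, fewer cells of a type and less RNA per cell cannot be told apart. Of 13 hepatocyte markers, 12 had ratios below 0, at a median of -0.22, and their summed signal was 298085 after 2/3PH and 352724 after 1/3PH. Their direction depended on the scaling. The median was 0.02 with quantile normalization, 0.003 with loess, 0.01 with hybridisation control and 0.22 with poly-A control scaling. Below 0 were then 6, 6, 5 and 4 of the 13. The median of all genes was 0.27 with hybridisation control and 0.48 with poly-A control scaling. The lowest hepatocyte marker stood at -0.86, the same to 2 decimals as Gsta1, and was Cyp2e1, a cytochrome P450 of pericentral hepatocytes. Cholangiocytes, which hold Gstp1 in rat liver, had 4 of 6 markers above the floor, at a median of 0.17. Of these 4, 3 were above 0 and 1, Spp1 at -0.65, was below it. The 6 together summed to 1509 after 2/3PH and 1460 after 1/3PH. All 10 macrophage markers were below 0, at a median of -0.61, with summed signals of 12538 after 2/3PH and 19324 after 1/3PH. All 8 endothelial markers were below 0, at a median of -0.55 and sums of 8208 after 2/3PH and 12569 after 1/3PH. Stellate and fibroblast markers had a median of -0.73 over the 10 above the floor, with 7 below 0 and 3 above it. All 11 with a probe set summed to 9055 after 2/3PH and 14902 after 1/3PH. The 6 neutrophil and erythroid markers had a median of -0.98, with sums of 14745 after 2/3PH and 30273 after 1/3PH. Such sums follow the brightest probe sets and not the list evenly: Hbb, a haemoglobin chain, gave 12168 of the neutrophil and erythroid sum after 2/3PH and 24196 after 1/3PH, and Epcam gave 912 of the cholangiocyte sum after 2/3PH and 777 after 1/3PH. With poly-A control scaling these medians were nearer to 0, at -0.17 for macrophage, -0.11 for endothelial, -0.28 for stellate and fibroblast and -0.54 for neutrophil and erythroid markers. The counts below 0 were then 7 of 10 macrophage and 4 of 8 endothelial markers, where the median of all genes was 0.48. On the deposited scale 47.1% of all genes were below 0. No marker with a probe set read 0. The part of cell composition in the transferase ratios was not tested.

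Scaling moved the zero of these ratios. The hybridisation controls had a median log2 ratio of -0.24 and the poly-A controls one of -0.44, and scaling to them put the median of all genes at 0.27 and 0.48. On the deposited scale 7 of 8 members lay below the median of all genes and Gsta3 above it. Median centring and both control scalings shift every gene alike and cannot change that count. Quantile and loess scaling can, and with each of them it was again 7 below and 1 above. Gstp3 ranged from -3.37 to -2.88 over the 11 alternatives that give a ratio, of which 6, the 5 scalings and the addition of 64 units to the signals, could alter a member's ratio. Gsta3 ranged from 0.72 to 1.21 and passed 2-fold with both control scalings, at 1.00 with the hybridisation controls.

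**Figure D5:**
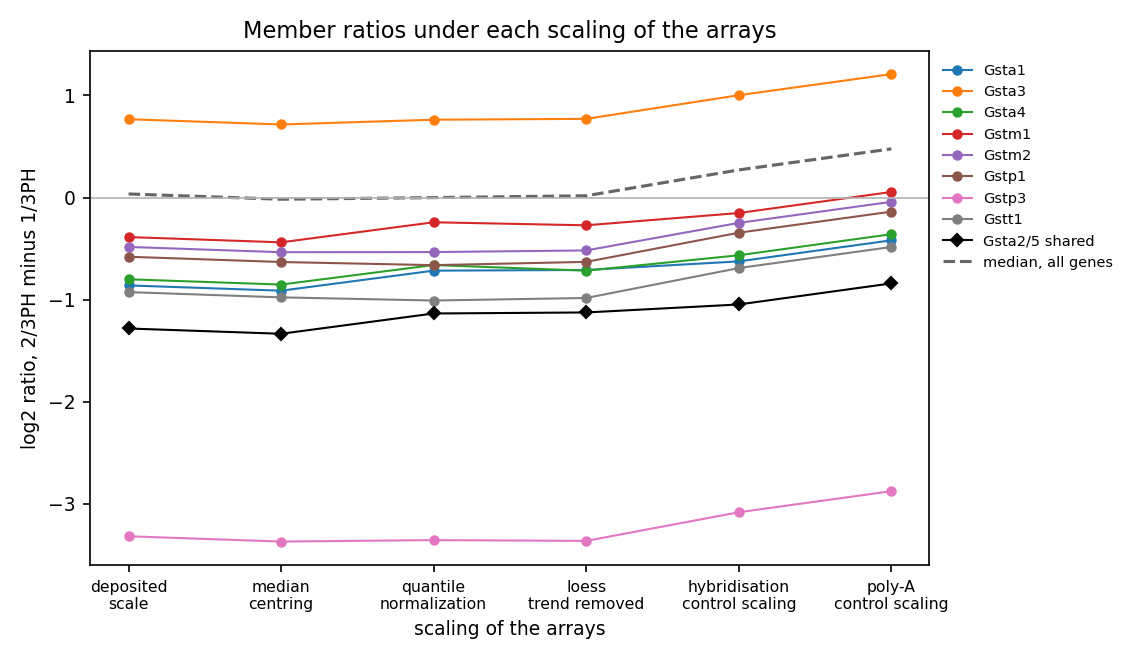
Log2 ratio, 2/3PH minus 1/3PH (y axis), of the 8 members above the floor and the shared Gsta2 or Gsta5 probe set under 6 scalings of the arrays (x axis; lines join values of the same probe set), with the median of all genes above the floor dashed. Median centring and the control scalings shift all values alike; Gsta3 lies above the dashed line and the other members below it on the deposited scale and with quantile and loess scaling, and Gstm1 reaches 0.05 with poly-A control scaling.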

How the data were processed

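Biotin-labelled cRNA from 2 RNA pools of 3 rats each was read on 1 Affymetrix array per pool, and the authors computed signals by MAS 5.0 using GeneSpring 11.0 (per the labels' protocols). The deposited values were read as log2, since base 2, unlike natural and base 10 logs, gave both arrays a common trimmed mean, 500.2 for 2/3PH and 500.3 for 1/3PH, with 2% left out at each end. Detection calls and the scaling target are not stated in the labels. Depth does not apply to arrays, and their number limits the precision.

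Of 31042 probe sets that were not controls, 20826 had 1 gene symbol in the platform annotation and were named through Entrez identifiers in the RefSeq table of GRCr8. Another 436 had several symbols and 9780 were not listed. A gene took its probe set of highest mean log2 signal, and the floor was the median of that mean over probe sets, 6.48. A gene was counted as higher or lower at 2-fold. With 1 array a group there was no test. A fold is given as "at least" where the dimmer signal was under the floor signal.

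The members, the 7 glutathione lists, the 7 marker lists, the alternatives and the naming rule were chosen with earlier results of these data known. The rule names all members, up to 4 genes of each glutathione list with the largest ratio in size, the 3 genes nearest to the most extreme member, and Cyp1a1, Nqo1, Gclc, Gclm, Nfe2l2, Ahr, Abcc2 and Alb. Promoter windows come from RefSeq. The procedure was tested on simulated data with Python 3.11.15, numpy 2.4.6, pandas 2.3.3 and statsmodels 0.14.6. Protein sequences were not analysed here.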

Additional observations from a re-analysis of the deposited data

How the results depend on the processing

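Of 13 alternatives, 11 give a ratio and 6 of them, the 5 scalings and 64 units added, altered those of the members. Of these 48 ratios, 47 kept their sign, and Gstm1 with poly-A control scaling (0.05) did not. The count of members at least 2-fold lower was 1 on the deposited scale, against 3.68% of all genes, and 4 at 1.5-fold, against 12.0%. It was 2 without a floor and 2 with quantile normalization, where the share of all genes at least 2-fold lower is not given. Without a floor the added member is Gstm3, which lay below the floor on both arrays, and with quantile normalization it is Gstt1 at -1.01. The count at least 2-fold higher was 0 on the deposited scale, against 6.12% of all genes. It was 1, Gsta3, with hybridisation control and with poly-A control scaling, which put the median of all genes at 0.27 and 0.48. The share of all genes at least 2-fold higher is not given for either of these scalings. At 1.5-fold the count higher was also 1, Gsta3, against 15.8%. The members' median was -0.25 with poly-A control scaling, where the median of all genes was 0.48. Over the 88 distinct genes of the 7 glutathione lists, 6 were 2-fold lower, 6.82% against 3.68% of all genes, and 7 higher, 7.95% against 6.12%. With poly-A control scaling, which put the median of all genes at 0.48, these counts were 3 lower and 11 higher. Without a floor they were 9 lower and 12 higher. For these 2 settings the share of all genes past 2-fold is not given. At 1.5-fold the counts were 24 lower, 27.3% against 12.0% of all genes, and 11 higher, 12.5% against 15.8%. At 3-fold they were 2 lower and 0 higher, and the share of all genes past 3-fold is not given. Medians of 6 of those 7 lists turned positive with poly-A control scaling and that of the membrane-bound transferases was -0.04. With hybridisation control scaling 2 turned, that of the peroxidases, glutaredoxins and glyoxalases to 0.09 and that of the regulators to 0.10. The median of all genes was then 0.27. The choice of probe set could not move a member above the floor, since each has 1. The marker lists and the members' counts at 1.5-fold were recomputed under the 5 scalings, an addition made after seeing the data, and the hepatocyte median was the only marker median that changed sign. No paired analysis was possible because each group is a single pooled array. Signal over background limits Gstm3, Ahr and the lymphocyte markers.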
